A study of Homo sapiens with 36 samples.

Results

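The LPS response of NR4A3-depleted THP-1 cells was compared with that of control cells at 5% CO2, as the LPS effect in shNR4A3 cells minus the LPS effect in shNT cells. The comparison rests on 12 of the 36 libraries of the series, chosen by their labels alone, 3 in each of 4 conditions. THP-1 cells grow as monocyte-like cells and come from a human leukaemia. The shNT line carried a non-target short hairpin RNA and the shNR4A3 line a hairpin against NR4A3, both delivered by lentivirus. All 12 cultures were kept in buffered medium at 5% CO2 for 4 h, and 6 of them received lipopolysaccharide (LPS) at 2.5 µg/ml for 2 h. Whether the lines were clonal is not given in the sources used here, so depletion of NR4A3 cannot be told apart from any other difference between the 2 lines. Nothing in the labels says that the replicates were separate cultures, and the p-values measure the spread between these libraries. The same comparison at 10% CO2 (12 other libraries) and a line with a hairpin against NR4A2 (shNR4A2, 6 libraries at 5% CO2) were used only to show where the values repeated or differed.

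NR4A1 (Nur77), NR4A2 (Nurr1) and NR4A3 (NOR1) are orphan nuclear receptors that are transcribed within minutes to hours of many stimuli and act as transcription factors without a known classical ligand. They bind as monomers to the NBRE element, AAAGGTCA, and in myeloid cells they have been tied to restraint of inflammatory transcription, in part through NF-kB. LPS binds CD14 and TLR4 on monocytes. From there MYD88 leads to NF-kB and MAP kinases and to early cytokine genes, and TRIF leads to IRF3, interferon-beta and the interferon-stimulated genes.

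The 12 libraries held 16171161 to 21602737 counts over genes (median 19403202.5), and 23149 to 30447 genes had at least 1 count. All 10 monocyte markers examined were at 1 TPM (a level scaled to gene length and library depth) or more on average in every condition, and no T cell or erythroid marker averaged 1 TPM in any. The 6 macrophage markers summed to 2.3 to 4.38 TPM in resting shNT libraries and 6.59 to 13.8 in resting shNR4A3 libraries, and with LPS to 3.48 to 5.76 and 6.59 to 12.9. Of 3 B cell markers 2 averaged 1 TPM or more in every condition, and MS4A1 was at 0 in all. The monocyte markers summed to 1930 to 2270 TPM in resting shNT libraries and to 2940 to 3380 in resting shNR4A3 libraries, and with LPS to 1230 to 1510 and 2140 to 2440. The dendritic cell markers summed to 42.2 to 56.7 TPM and 60.0 to 80.1 TPM at rest. Fewer cells of a type and less RNA per cell cannot be told apart in bulk RNA, and the part of this difference between the lines in the results was not tested. Among LPS-treated libraries, replicate 2 had the lowest level of LPS-induced genes in both lines, and the results that move without it are given with and without it.

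NR4A3 (ENSG00000119508, chromosome 9 of GRCh38, 99821855 to 99866891) was measured first as a check of the lines. In resting shNT libraries it stood at 0.512, 0.556 and 0.693 TPM, and in resting shNR4A3 libraries at 0.0315, 0.107 and 0.158. With LPS it reached 30.9, 31.9 and 32.3 TPM in shNT libraries and 16.7, 17.0 and 18.2 in shNR4A3 libraries. The groups did not overlap in either state. The shNR4A3 line held 16.9% of the shNT level at rest and 54.5% with LPS, so the hairpin line still carried a large LPS-induced pool of the transcript. The log2 difference between lines was -2.47 at rest (adjusted p = 0.000324, edgeR) and -0.82 with LPS (adjusted p = 0.000116). The LPS fold of NR4A3 was larger in shNR4A3 cells by 1.65 (95% interval 0.84 to 2.46, adjusted p = 0.582, not called), a value that rests on 1 to 5 counts in the resting shNR4A3 libraries. At 10% CO2 the same difference had the opposite sign, -0.72 (-1.68 to 0.25), and 10% minus 5% CO2 was -2.36 (-3.63 to -1.09, adjusted p = 1 by edgeR). NR4A2 rose in both lines, from 2.83, 4.08 and 4.16 TPM to 51.3, 62.2 and 74.7 in shNT and from 2.51, 2.97 and 3.31 to 38.3, 41.8 and 60.7 in shNR4A3. NR4A1 went from 6.34, 7.16 and 9.08 TPM to 13.8, 18.5 and 22.1 in shNT and from 4.02, 5.10 and 8.37 to 16.9, 17.6 and 20 in shNR4A3. Both rose with LPS in both lines, and neither passed the test between the lines in either state.

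**Figure D1:**
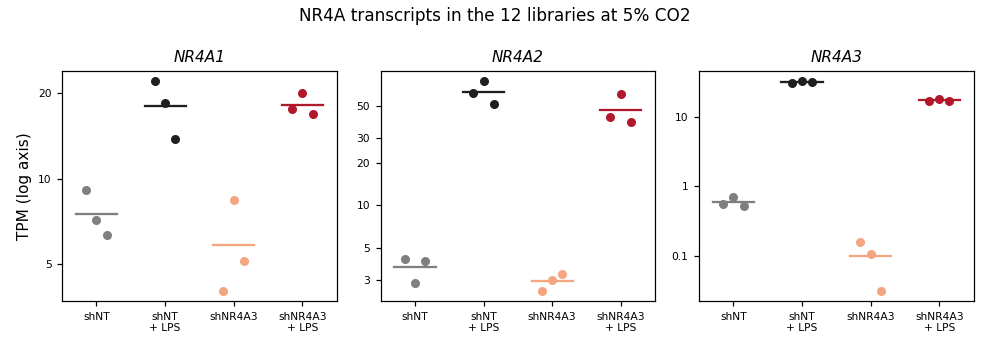
Levels of NR4A1, NR4A2 and NR4A3 in TPM (log axis) in the 12 libraries at 5% CO2, where each point is 1 library and each bar the mean of 3. NR4A3 in shNR4A3 libraries with LPS (16.7 to 18.2 TPM) lay below shNT libraries with LPS (30.9 to 32.3) and far above resting libraries of either line.

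LPS changed a large share of the transcriptome in both lines. It changed 3896 of 17720 genes in shNT cells (22% of those tested, 1893 higher and 2003 lower) and 5113 in shNR4A3 cells (28.9%, 2414 higher and 2699 lower), where a gene is called at an adjusted p under 0.05 by edgeR's quasi-likelihood test. Of these, 3271 were called in both lines in the same direction and 0 in opposite directions, 625 were called in shNT cells only by this threshold and 1842 in shNR4A3 cells only. Scaling by library size alone gave 1184 higher and 3926 lower in shNT cells and 1531 and 5077 in shNR4A3 cells, with the median of all genes at -0.18 and -0.20 on the log2 scale, so that split depends on the scaling. Between the lines, 1010 genes were called at rest (5.7%, 540 higher and 470 lower in shNR4A3) and 1430 with LPS (8.07%, 800 and 630). With scaling by library size alone the numbers with LPS were 657 higher and 806 lower. The number at rest was 528 without shNT replicate 3 and 568 without shNR4A3 replicate 1. With LPS it was 708 and 898 without LPS-treated shNT replicates 2 and 3, and 759 and 847 without LPS-treated shNR4A3 replicates 1 and 3.

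No gene passed edgeR's test of the difference in LPS response itself in the fit without replicate number as a term. At 5% CO2 edgeR called 0 of 17720 genes (0%), with 854 at an unadjusted p under 0.05, 517 of them with a more positive LPS effect in shNR4A3 cells and 337 with a more negative one. DESeq2 called 8 genes, 7 higher and 1 lower. The biological coefficient of variation was 11.4%. Without 1 library, replicate 2 of LPS-treated shNR4A3 cells, edgeR called 39 genes, 38 higher and 1 lower, and without replicate 2 in all 4 conditions it called 11. With replicate number as a term and no library left out, edgeR called 17 genes, 14 higher and 3 lower. The 10 genes described next had the smallest p in each direction among genes with a symbol in the fit without that term. None of them was called by edgeR in that fit, and MROCKI, LINC01547, KDM6B, TP53INP2, CXCR4 and GCNT1 were called with the term. The adjusted p given for each gene is from the fit without it. A gene without a symbol, ENSG00000228477, had the second smallest p of all. It lies inside MFSD2A on the same strand, so its reads may be split with that gene. It went from 38, 38.8 and 51.4 TPM to 78.8, 87 and 107 in shNT libraries and from 22.5, 22.8 and 23.3 to 96.1, 122 and 131 in shNR4A3 libraries. The lines were apart at rest and overlapped with LPS, and the difference in LPS effect was 1.25 (0.80 to 1.71, adjusted p = 0.168 by edgeR).

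MROCKI, KDM6B, TP53INP2, LINC01547 and KANK1 led the genes with a symbol whose LPS effect was more positive in shNR4A3 cells. MROCKI (ENSG00000227502, chromosome 6, 113868013 to 113873351) is a long non-coding RNA beside MARCKS that has been described as a regulator of cytokine genes. Its levels were 22.6, 22.9 and 25.1 TPM in resting shNT libraries and 17.3, 19.4 and 21.1 with LPS, against 13.5, 16.5 and 16.9 in resting shNR4A3 libraries and 26.7, 28.0 and 30.8 with LPS. LPS-treated shNR4A3 libraries were above every other library and resting shNR4A3 libraries below every other. The log2 difference in LPS effect was 1.17 (95% interval 0.79 to 1.54, adjusted p = 0.0933 by edgeR). KDM6B (chromosome 17, 7839904 to 7854796) encodes JMJD3, a demethylase of lysine 27 of histone H3 that LPS induces in macrophages. It went from 15.2, 15.8 and 18.2 TPM to 55.6, 74.4 and 77.2 in shNT libraries, and from 12.3, 14.6 and 16.9 to 106, 108 and 112 in shNR4A3 libraries. The resting libraries overlapped between the lines and the LPS-treated ones did not. The log2 difference was 0.84 (0.51 to 1.16, adjusted p = 0.176). With LPS alone, KDM6B was higher in shNR4A3 cells by a log2 value of 0.72 (adjusted p = 0.000306).

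TP53INP2 (chromosome 20, 34704290 to 34713439), whose product takes part in autophagosome formation, started lower in the depleted line. It stood at 46.2, 56.5 and 61.5 TPM in resting shNT libraries and at 27.2, 27.3 and 27.5 in resting shNR4A3 libraries, without overlap. With LPS the lines overlapped, at 98.5, 103 and 133 TPM and at 113, 126 and 166. The log2 difference in LPS effect was 1.29 (0.80 to 1.78, adjusted p = 0.240). KANK1 (chromosome 9, 470291 to 746106), an adaptor of the cortical actin cytoskeleton, also started lower in the depleted line, but LPS lowered it in shNT cells. There 13.0, 15.1 and 15.7 TPM at rest became 7.10, 7.12 and 8.14 with LPS, whereas 6.39, 8.17 and 9.10 in resting shNR4A3 libraries became 6.55, 9.87 and 10.0. Its LPS effect was -0.76 in shNT cells (adjusted p = 0.00407 by edgeR) and 0.40 in shNR4A3 cells (adjusted p = 0.0942, not called). The difference was 1.15 (0.65 to 1.66, adjusted p = 0.494). LINC01547 (chromosome 21, 44932814 to 44939913), a long non-coding RNA, had overlapping levels at rest (7.45, 8.23 and 8.93 TPM against 7.20, 7.27 and 9.79, overlapping). With LPS it was at 14.1, 15 and 18.7 TPM in shNT libraries and at 33.5, 33.7 and 39.7 in shNR4A3 libraries, a difference in LPS effect of 1.21 (0.75 to 1.66, adjusted p = 0.176). TP53INP2, LINC01547, KANK1 and GCNT1 overlap other annotated genes, and the strand setting of the counting is not given in the sources used here, so their reads may include those of a neighbour.

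CXCR4, GCNT1, STBD1, EPS8L3 and FFAR4 led in the other direction. CXCR4 (ENSG00000121966, chromosome 2, 136114349 to 136118165), the receptor for CXCL12, stood at 23.2, 24.4 and 34.0 TPM in resting shNT libraries and 35.4, 37.7 and 38.7 with LPS. In shNR4A3 libraries it fell, from 38.9, 48.6 and 73.6 TPM to 19.3, 25.8 and 29.7. The LPS effect was 0.66 in shNT cells (adjusted p = 0.0614, not called) and -0.90 in shNR4A3 cells (adjusted p = 0.0113), and the difference was -1.56 (-2.28 to -0.84, adjusted p = 0.582). GCNT1 (chromosome 9, 76419850 to 76507416), the core 2 branching enzyme of O-glycans, was higher at rest in shNR4A3 libraries (27.0, 31.6 and 32.8 TPM against 18.3, 20 and 22.6) and overlapped with LPS (8.19, 10.2 and 10.9 against 9.66, 10.8 and 12). Its difference was -0.73 (-1.10 to -0.37, adjusted p = 0.582). Both genes were called higher in resting shNR4A3 cells and neither was called between the lines with LPS.

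STBD1 (chromosome 4, 76306026 to 76311599), a glycogen-binding protein, overlapped at rest (5.30, 5.50 and 6.23 TPM in shNT, 4.48, 5.07 and 6.35 in shNR4A3). With LPS it reached 7.80, 7.90 and 7.90 TPM in shNT libraries and stood at 3.03, 3.58 and 3.97 in shNR4A3 libraries, a difference of -1.05 (-1.53 to -0.56, adjusted p = 0.494). EPS8L3 (chromosome 1, 109750080 to 109764027) was near the limit of measurement, with 6 to 9 counts in LPS-treated shNR4A3 libraries against 24 to 33 in LPS-treated shNT libraries, and its difference was -2.02 (-2.96 to -1.09, adjusted p = 0.494). FFAR4 (chromosome 10, 93566665 to 93604480), a receptor for long-chain fatty acids, held 1 to 3 counts in LPS-treated shNR4A3 libraries and 9 to 26 in LPS-treated shNT libraries, and 40 to 76 in the resting libraries of both lines. Its difference was -2.87 (-4.20 to -1.53, adjusted p = 0.494). STBD1 lies within the FAM47E-STBD1 read-through gene, and FFAR4 and EPS8L3 overlap genes on the other strand, so these counts may be split.

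**Figure D2:**
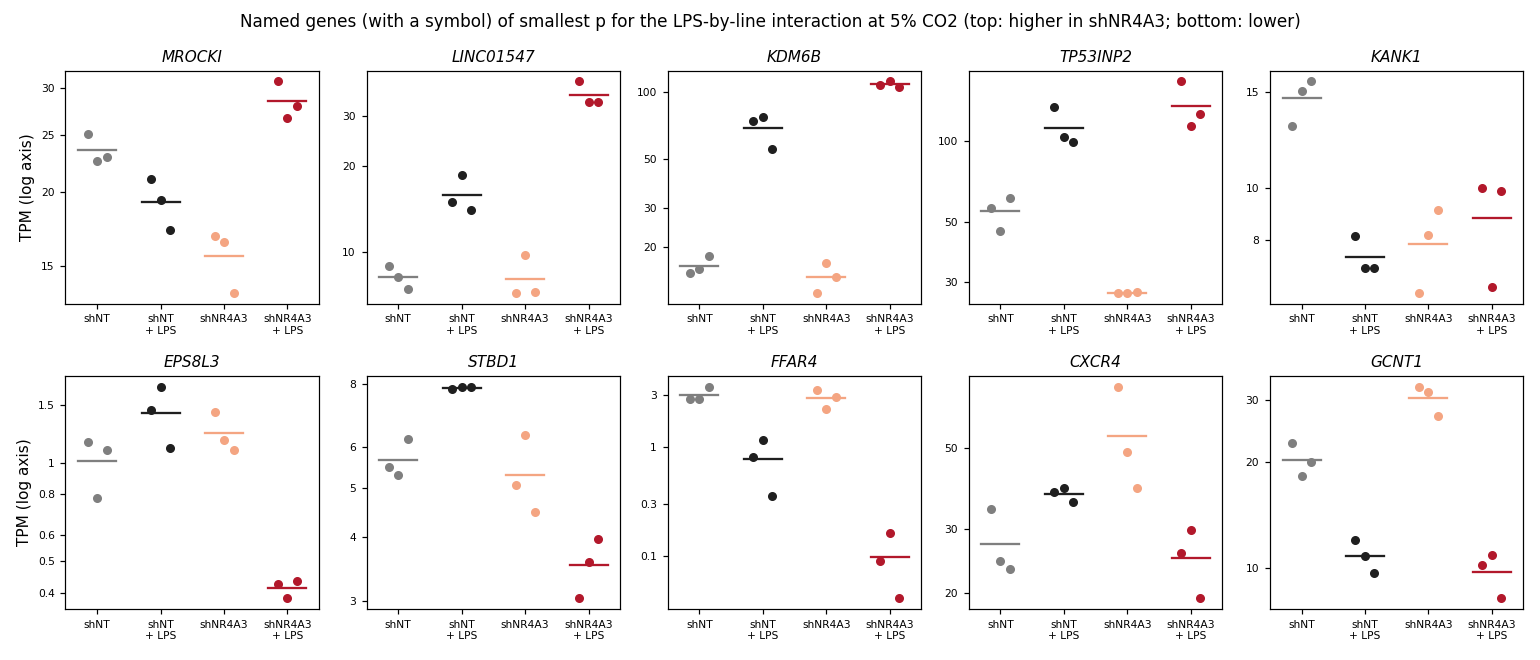
Levels in TPM (log axis) of the 5 genes with a symbol and the smallest p in each direction of the interaction at 5% CO2, where each point is 1 library and each bar the mean of 3. MROCKI rose and CXCR4 fell with LPS in shNR4A3 cells and neither was called in shNT cells, and LINC01547 and KDM6B separated the lines with LPS and overlapped at rest.

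The genes that LPS induces had, as a group, a larger median LPS effect in shNR4A3 cells, given here as counts and medians without a test. To keep the choice of genes apart from the test, LPS-induced and LPS-repressed genes were taken from shNT cells at 10% CO2, which are not among the 12 libraries (called by edgeR, with 31.2% of genes called there, and changed by a log2 value of 1 or more). Of 1054 LPS-induced genes, 796 had a larger LPS effect in shNR4A3 than in shNT cells and 258 a smaller one (75.5% higher, against 47.8% of all genes tested). Their median difference was 0.36 on the log2 scale, against -0.01 for all genes, and 0.35 without the 65 genes that had 0 counts in a whole condition. Single libraries deviated from their condition mean with an SD of 0.16 in the median of this class. Of the 1054 genes, 166 had an unadjusted p under 0.05, and 158 of the 166 were higher in shNR4A3. Of 787 LPS-repressed genes, 31.8% had a more positive LPS effect in shNR4A3 cells and the median was -0.16, a value that was -0.025 when the classes came from shNT cells at 5% CO2 instead. None of the class genes was called singly by edgeR in the fit to all 12 libraries without replicate number as a term. With that term edgeR called members of the LPS-induced class, KDM6B, BIRC3 and IL1B among them. DESeq2 called KDM6B, TP53INP2, LINC01547 and ENSG00000228477 of the LPS-induced class and KANK1 of the LPS-repressed class.

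The shift lay in the LPS-treated libraries. The median level of the LPS-induced genes was 0.07, 0.05 and -0.03 log2 CPM in resting shNT libraries and 0.07, 0.03 and -0.0025 in resting shNR4A3 libraries, which overlapped. With LPS it was 2.01, 1.72 and 2.13 in replicates 1 to 3 of shNT cells and 2.75, 2.11 and 2.69 in those of shNR4A3 cells. Replicate 2 was the lowest in both lines, and shNR4A3 replicate 2 fell within the range of the shNT libraries. The median difference between lines was 0.02 at rest and 0.41 with LPS. It moved between 0.25 and 0.48 for the difference in LPS effect when single libraries were left out. At 10% CO2, in other libraries and with classes taken from shNT cells at 5% CO2, the median difference in LPS effect was 0.36 for 816 LPS-induced genes (72.2% higher) and -0.07 for 506 LPS-repressed genes, against -0.01 for all genes. In shNR4A2 cells at 5% CO2, which share the shNT libraries, the median over the 1054 genes was 0.16.

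**Figure D3:**
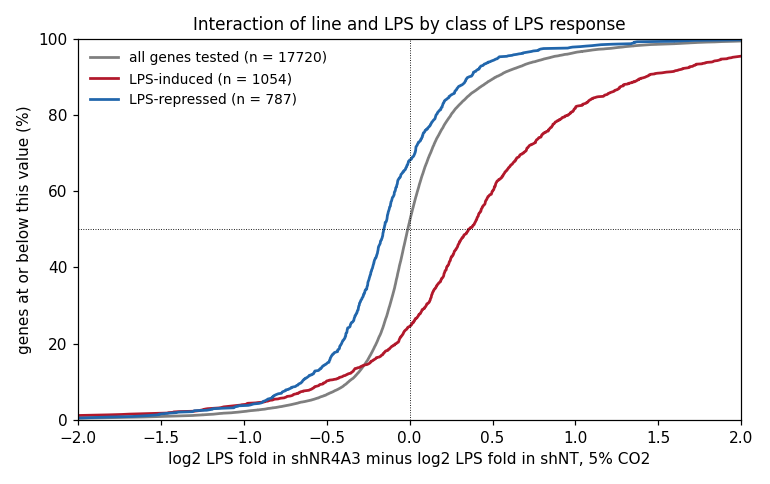
Cumulative share of genes (%) by the difference in log2 LPS fold between shNR4A3 and shNT cells at 5% CO2, for all 17720 genes tested, 1054 LPS-induced genes and 787 LPS-repressed genes. The curve of LPS-induced genes lies to the right, with its median at 0.36, and that of LPS-repressed genes to the left, with its median at -0.16.

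Single genes were called when the same difference was tested at 10% CO2, and these could then be read at 5% CO2 in separate libraries. Those libraries came from the same lines and carried the same replicate numbers, so agreement between the CO2 levels is not independent of the lines. At 10% CO2 edgeR called 35 genes (0.198% of those tested), 32 with a more positive LPS effect in shNR4A3 cells and 3 with a more negative one, and DESeq2 called 99. At 5% CO2 all 35 had the same sign, against 59.3% of all genes tested, and 26 had an unadjusted p under 0.05 with that sign, against 3.91% of all genes. The median difference at 5% CO2 was 0.80 for the 32. The number called at 10% CO2 was between 9 and 43 when single libraries were left out, and the test of the difference between 10% and 5% CO2 called 0 genes by edgeR (336 at an unadjusted p under 0.05) and 0 by DESeq2. MROCKI, LINC01547, KDM6B, TP53INP2, CXCR4 and GCNT1 of the leading genes at 5% CO2 are among the 35. KANK1 (0.98) and STBD1 (-0.85) had the same sign at 10% CO2 and were not called. EPS8L3 had the opposite sign there (0.20 against -2.02, with 10% minus 5% CO2 at 2.22, interval 0.90 to 3.54). FFAR4 was nearer 0 (-0.57 against -2.87, 10% minus 5% at 2.30, interval 0.58 to 4.03). Of the 32, 25 were induced by LPS in shNT cells at 5% CO2 (10.7% of all genes) and 30 in shNR4A3 cells (13.6%). The LPS-induced class held 19 of the 32, against 1054 of 17720 genes. That class came from shNT libraries at 10% CO2, which also entered the test that chose the 32. At rest 23 of the 32 were at a lower level in shNR4A3 cells, 5 of them called (of all genes, 470 of 17720 were called lower). With LPS 30 were at a higher level, 13 of them called (of all genes, 4.51% were called higher).

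Some of the 35 genes are given here with their values, chosen after those were seen. NFKB2, the precursor of the p52 subunit of NF-kB, went from 22.8, 25.7 and 26.0 TPM to 333, 434 and 460 in shNT libraries at 5% CO2 and from 17.1, 21.2 and 21.4 to 411, 599 and 653 in shNR4A3 libraries, which overlapped with LPS. Its difference in LPS effect was 0.77 at 5% CO2 and 0.87 at 10% CO2. BIRC3, an inhibitor of apoptosis and a ubiquitin ligase of the NF-kB pathway, reached 31.8, 32.9 and 35.6 TPM with LPS in shNT libraries and 48.1, 56.8 and 64.7 in shNR4A3 libraries, without overlap, from 0.636 to 1.01 TPM at rest in both lines. Its difference was 1.19 at 5% CO2 (0.63 to 1.75) and 1.10 at 10%. CD83, a surface marker of activated dendritic cells, reached 500, 545 and 558 TPM with LPS in shNT and 706, 812 and 911 in shNR4A3 libraries, without overlap. IRS1, the adaptor of the insulin receptor, reached 6.38, 9.02 and 9.84 TPM against 11.1, 13.1 and 13.9, again without overlap. MARCKS, the neighbour of MROCKI and a substrate of protein kinase C, had differences of 1.23 at 5% and 1.72 at 10% CO2. NR4A1 itself was among the 35, with 0.93 at 10% CO2 (adjusted p = 0.0315 by edgeR) and 0.40 at 5% CO2 (interval -0.29 to 1.08).

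**Figure D4:**
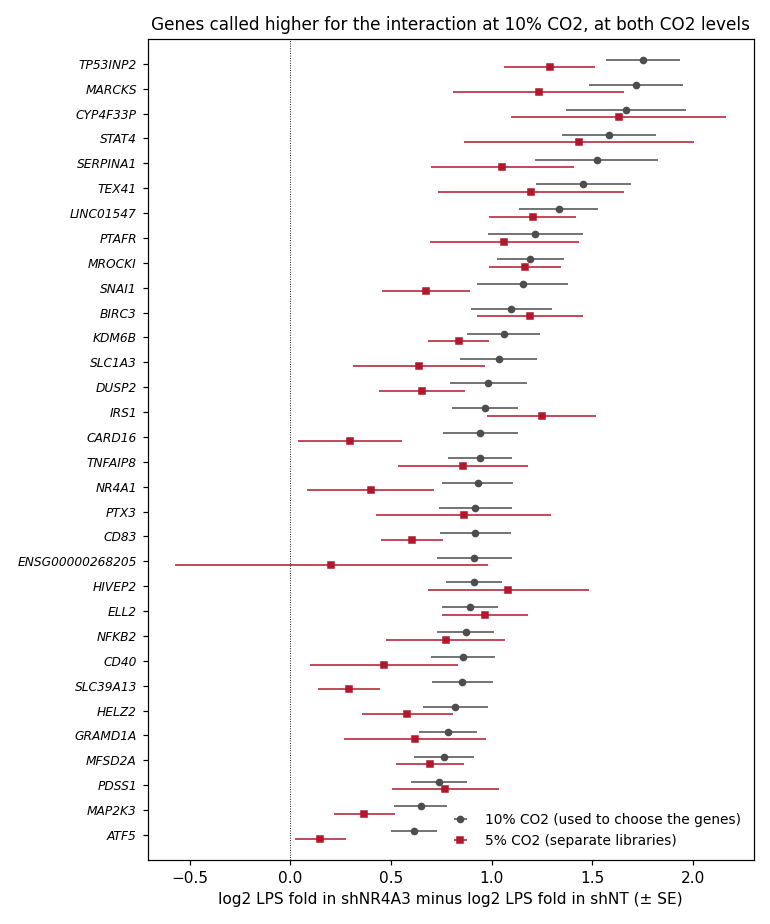
Difference in log2 LPS fold between shNR4A3 and shNT cells (± SE) for the 32 genes called with a more positive LPS effect in shNR4A3 cells at 10% CO2, at 10% CO2 (circles) and in the separate libraries at 5% CO2 (squares). All 32 squares lie above 0 like their circles, and the SE of 1 of them, ENSG00000268205, crosses 0.

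Promoters of these genes were searched for the NBRE and for 10 letters of the kappaB element, which the capitals in the printed sequences show, on both strands, in windows of RefSeq (GRCh38.p14) from 250 bases before to 50 after each annotated start. The NBRE was in 0 of 20 windows of the 10 leading genes and in 0 of 52 windows of the 35 genes, of which 27 matched a symbol with a window, against 1.22% of all 35116 windows. The kappaB letters were in 0 of the 20 and in 3 of the 52, 2 of NFKB2 and 1 of BIRC3, against 1.91% of all windows. Over the classes, 5.02% of 977 windows of LPS-induced genes, 1.55% of 708 windows of LPS-repressed genes and 2.06% of 17406 windows of all genes tested held the kappaB letters. The NBRE was in 1.13%, 0.847% and 0.862% of the same windows. The bases before the start are shown for the 2 genes of the 35 with a match and for 2 cytokine-response genes described next, to let the position of the match be read, with the match in capitals and the rest in lower case.
NFKB2, chr10:102395455-102395704, plus strand: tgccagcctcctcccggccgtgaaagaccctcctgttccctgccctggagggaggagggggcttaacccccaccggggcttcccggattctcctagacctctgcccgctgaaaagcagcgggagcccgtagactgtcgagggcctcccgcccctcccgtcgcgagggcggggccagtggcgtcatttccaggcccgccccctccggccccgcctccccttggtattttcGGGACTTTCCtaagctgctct
BIRC3, chr11:102317234-102317483, plus strand: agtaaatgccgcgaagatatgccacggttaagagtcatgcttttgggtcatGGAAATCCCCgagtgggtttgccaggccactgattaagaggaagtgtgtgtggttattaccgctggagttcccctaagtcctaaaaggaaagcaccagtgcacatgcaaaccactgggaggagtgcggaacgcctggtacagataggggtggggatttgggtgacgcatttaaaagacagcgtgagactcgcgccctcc
IL6, chr7:22726950-22727199, plus strand: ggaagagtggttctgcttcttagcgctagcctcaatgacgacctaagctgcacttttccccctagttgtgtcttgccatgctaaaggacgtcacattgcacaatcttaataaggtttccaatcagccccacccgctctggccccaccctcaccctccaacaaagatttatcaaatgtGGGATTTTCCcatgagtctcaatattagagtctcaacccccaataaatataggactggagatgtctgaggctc
NFKBIA, chr14:35404750-35404999, minus strand: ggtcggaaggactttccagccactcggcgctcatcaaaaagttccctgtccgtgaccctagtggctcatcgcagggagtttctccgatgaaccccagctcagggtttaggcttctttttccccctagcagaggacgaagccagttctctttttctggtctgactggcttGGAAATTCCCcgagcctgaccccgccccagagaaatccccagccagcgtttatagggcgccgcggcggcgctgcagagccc
The matches began 21, 199, 73 and 81 bases before the start, those of BIRC3 and NFKBIA on the opposite strand to the gene.

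Interferon-stimulated genes stood higher in LPS-treated shNR4A3 cells, and to a smaller extent already at rest. The median log2 difference between the lines over this list was 0.33 at rest and 0.61 with LPS, against -0.0005 and -0.007 for all genes. Of 39 genes tested in this list, 27 were called higher and 0 lower in shNR4A3 than in shNT cells with LPS (of all genes, 4.51% were called higher), and 10 higher and 1 lower at rest (of all genes, 3.05% higher). LPS raised 13 of the 39 and lowered 1 in shNT cells, and raised 26 and lowered 0 in shNR4A3 cells, where LPS raised 10.7% and 13.6% of all genes. The difference in LPS effect was positive for 36 of 39 and its median was 0.28, or 0.31 without IFNB1, which had 0 counts at rest, against -0.01 for all genes. All 10 members with an unadjusted p under 0.05 were positive, and 0 of the 39 were called. Without replicate 2 of LPS-treated shNR4A3 cells, IFIT2 (1.21) and IFIT3 (0.87) were among the genes called by edgeR. That fit kept replicate 2 of LPS-treated shNT cells, which also had the lowest level of LPS-induced genes in its line. The choice is therefore uneven between the lines, and these calls are no separate support. In the separate libraries at 10% CO2 the median was 0.31, also with 0 called. Under scaling by library size alone 34 of 39 were positive, and 25 were called higher with LPS. IFIT2, which binds viral RNA, went from 8.61, 9.09 and 11.1 TPM to 18.2, 18.4 and 19.8 in shNT libraries and from 7.92, 11.9 and 13.5 to 31.5, 45.5 and 52.5 in shNR4A3 libraries. The lines overlapped at rest and not with LPS, and the difference in LPS effect was 1.00 (SE 0.29). IFIT3 reached 32, 33.9 and 35.2 TPM against 61.2, 80.9 and 86.6 (difference 0.70, SE 0.21). OASL, a member of the oligoadenylate synthetase family, reached 12.6, 14.5 and 17.0 TPM against 20.8, 32.1 and 36.5 (difference 0.82, SE 0.36). MX1, a dynamin-like antiviral GTPase, was at 16.2, 16.5 and 16.5 TPM against 20.2, 21.4 and 23.2 with LPS and overlapped at rest. IFNB1, the interferon gene itself, had 0 counts in every resting library and 2.03, 2.81 and 3.99 TPM with LPS in shNT against 2.34, 3.44 and 4.41 in shNR4A3 libraries, which overlapped.

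All 15 NF-kB subunits and inhibitors were induced by LPS in both lines (13 of 15 in each line under scaling by library size alone). LPS raised 10.7% and 13.6% of all genes in shNT and shNR4A3 cells. The difference in LPS effect was positive for 11 of 15 with a median of 0.34 (10 of 15 under scaling by library size alone). These values lay near those of the LPS-induced class, 75.5% positive with a median of 0.36, against 47.8% and -0.01 for all genes. Of the 15, 4 had an unadjusted p under 0.05, NFKB2, REL (0.59) and CYLD (0.34) positive and NFKBIA (-0.28) negative. The share with such a p was 15.7% in the LPS-induced class and 4.82% of all genes. NFKBIA, the inhibitor that holds NF-kB in the cytoplasm, went from 117, 118 and 141 TPM to 1644, 1783 and 1909 in shNT libraries and from 141, 148 and 154 to 1636, 1674 and 1818 in shNR4A3 libraries. Its LPS-treated libraries overlapped. TNFAIP3, the A20 feedback inhibitor, had a difference of 0.44 (-0.11 to 1.00).

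Among 23 cytokines tested the difference was positive for 15 and negative for 8, with a median of 0.18 (0.21 without 2 genes at 0 counts in a condition). It was positive for 47.8% of all genes and 75.5% of the LPS-induced class. IL1B reached 3686, 3715 and 4935 TPM with LPS in shNT libraries and 4415, 5054 and 6508 in shNR4A3 libraries, which overlapped, and at rest stood at 19.6, 25.9 and 27.6 against 17.5, 18 and 18.3. Its difference in LPS effect was 0.83 (0.26 to 1.40, adjusted p = 1 by edgeR). With replicate number as a term IL1B was called (adjusted p = 0.00644 by edgeR). TNF was at 51.6, 71.9 and 72.3 TPM at rest in shNT libraries and at 19.3, 35.2 and 39.8 in shNR4A3 libraries, without overlap, and with LPS at 1964, 2168 and 2221 against 1712, 1929 and 1964. Its LPS fold was larger in shNR4A3 cells by 0.90 on the log2 scale (0.24 to 1.56), with a lower resting level (called, adjusted p = 0.0237 by edgeR) and LPS-treated levels at or below those of shNT cells. IL6 had 0 counts in every resting shNT library, so no fold is given. With LPS it was at 1.31, 2.25 and 3.62 TPM in shNT libraries and 4.95, 6.96 and 12.5 in shNR4A3 libraries, without overlap (log2 difference between lines 1.83, adjusted p = 0.017 by edgeR). With LPS 6 cytokines were called higher in shNR4A3, TNFSF15, IL1RN, TNFSF10, TNFSF13B, IL6 and EBI3, and LIF was called lower. Of all 17720 genes, 4.51% were called higher and 630 lower with LPS. At rest 2 cytokines were called higher and 2 lower, where 3.05% of all genes were called higher and 470 genes lower. Among 19 chemokines the difference was positive for 16, with a median of 0.25, below the 0.36 of the LPS-induced class. Their levels were not higher in shNR4A3 cells with LPS, where the median difference between the lines was -0.01. With LPS 0 chemokines were called higher and 2 lower in shNR4A3, and at rest also 0 higher and 2 lower. CCL2, the monocyte attractant, was at 8.62, 9.12 and 14.6 TPM at rest in shNT and 3.41, 3.42 and 3.81 in shNR4A3 libraries, and at 80.1, 85.9 and 141 against 55.6, 73.7 and 111 with LPS, a difference of 1.28 (0.055 to 2.50). This difference was called with replicate number as a term (adjusted p = 0.016 by edgeR). CXCL8, the neutrophil attractant, had a difference of -0.06 (-0.89 to 0.77), CCL3 of 0.27 (-0.43 to 0.98) and CCL4 of 0.52 (-0.56 to 1.59), and the last 2 have near-identical copies that could share reads. CXCL10 reached 256, 281 and 555 TPM in shNT and 354, 535 and 847 in shNR4A3 libraries, which overlapped.

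The next 7 lists had medians near that of all genes, of which 47.8% had a positive difference. The difference was positive for 11 of 21 immediate-early factors, where FOS had -0.30 (-0.73 to 0.12) and EGR1 0.37 (-0.44 to 1.17), and for 12 of 21 components of the LPS receptor pathway, 17 of 26 genes of antigen presentation, 11 of 24 monocyte surface receptors, 6 of 12 eicosanoid enzymes, 13 of 19 genes of glycolysis and 14 of 17 of cholesterol handling, with medians of -0.02 to 0.07. Under scaling by library size alone the count for glycolysis was 9 of 19, with its median on the other side of 0. PTGS2, the inducible cyclooxygenase, had 0.14 (-1.17 to 1.45) and IER3, a survival factor, 0.13 (-0.76 to 1.03). Feedback phosphatases and decay factors (12 of 17 positive, median 0.22), inflammasome genes (5 of 9, 0.16) and adhesion, coagulation and matrix genes (12 of 17, 0.38, or 0.33 without 1 gene at 0 counts in a condition) lay higher. In the last, F3, tissue factor, was lower at rest in shNR4A3 libraries (75.7, 93.6 and 104 TPM against 168, 189 and 219) and overlapped with LPS (164, 177 and 227 against 226, 259 and 267), a difference of 0.68 (SE 0.17). F3 was called with replicate number as a term (adjusted p = 0.0164 by edgeR). In none of these lists did edgeR call a gene for the difference in the fit without replicate number as a term.

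**Figure D5:**
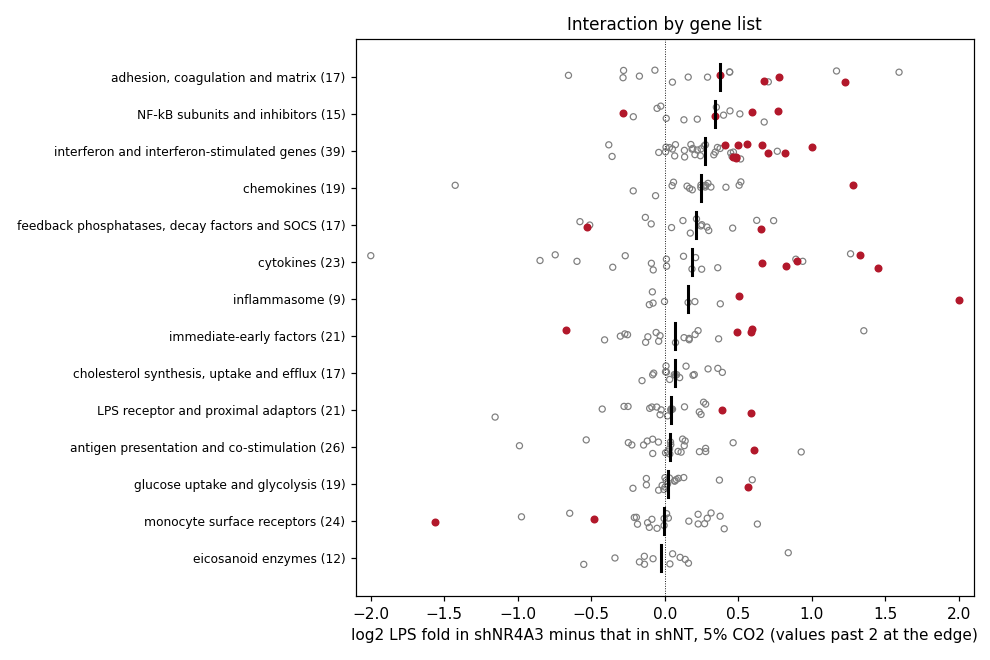
Difference in log2 LPS fold between shNR4A3 and shNT cells at 5% CO2 for each tested member of 14 gene lists (number tested in brackets), with filled points for an unadjusted p under 0.05 and a bar at the median. Filled points lie mostly to the right of 0, and all 10 in the interferon list do.

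Depletion of NR4A2 gave values in part alike. The shNR4A2 comparison shares the 6 shNT libraries, so agreement between the 2 is not independent. It called 0 genes by edgeR (392 at an unadjusted p under 0.05) and 2 by DESeq2. The direct test of the LPS effect in shNR4A3 against shNR4A2 cells, without shNT libraries, called 0 genes by edgeR (423 at an unadjusted p under 0.05) and 1 by DESeq2. CXCR4 had -1.56 in shNR4A3 and -1.42 in shNR4A2 cells, and the direct difference was -0.13 (-1.06 to 0.80). KANK1 had 1.15 and 1.03, with a direct difference of 0.13 (-0.52 to 0.78), and GCNT1 -0.73 and -0.93, with 0.20 (-0.30 to 0.71). MARCKS had 1.23 and 1.01, with 0.23 (-0.755 to 1.21), and BIRC3 1.19 and 0.84, with 0.35 (-0.28 to 0.98). STBD1 had -1.05 and -0.78, with -0.26 (-0.89 to 0.36). For TP53INP2 the values were 1.29 and 0.37 and the direct difference 0.92 (0.39 to 1.45), for MROCKI 1.17 and 0.48 with 0.69 (0.18 to 1.20), and for KDM6B 0.84 and 0.43 with 0.41 (0.07 to 0.74). TNF had 0.90 and -0.09, with a direct difference of 0.99 (0.29 to 1.70). No direct difference passed adjustment (adjusted p = 1 for each, edgeR).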

How the data were processed

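RNA of 12 THP-1 libraries (shNT and shNR4A3, 5% CO2, with and without LPS) was analysed, with 12 at 10% CO2 and 6 of shNR4A2 for comparison. Per the methods and file headers, the authors used Trimmomatic 0.36 on poly(A) reads and STAR 2.5.2b with GRCh38, and deposited whole-number counts per gene from featureCounts (Subread 1.5.2), not normalized. The annotation release and strand setting are not given in the sources used here. Symbols matched 56410 of 57500 gene IDs (98.1%).

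Genes were kept by filterByExpr (minimum count 10, minimum total 15) over all 36 libraries. The interaction was tested with edgeR 4.0.16 (TMM, robust quasi-likelihood test, Benjamini-Hochberg over 17720 genes, threshold 0.05) under R 4.3.3, within the libraries compared. DESeq2 1.42.0, the test in the study's methods, was an alternative, with other scalings, filters, a replicate block, a fit to 36 libraries and libraries left out. TPM was computed from counts and lengths. SE is the log2 value over the root of F. The fits were tested on simulated data.

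Named genes were the NR4A receptors, the 5 smallest p in each direction among genes with a symbol (none being called), fixed cytokine landmarks and genes called at both CO2 levels (none). The members and lists were chosen with earlier results of these data known. NFKB2, BIRC3, IRS1, F3, RESF1 and other genes outside that rule were picked once their values were known. The p-values measure the spread between 3 libraries a condition, and depth limits genes under about 10 counts. Values of 1 gene called at 10% CO2 are not reported here.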

Additional observations from a re-analysis of the deposited data

Results flagged for a closer look

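At 10% CO2 the LPS effect differed between shNR4A3 and shNT cells for 35 genes by edgeR's test of the difference itself, whereas 0 were called at 5% CO2. Both numbers are from fits without replicate number as a term. With that term edgeR called 17 genes at 5% CO2, and DESeq2 without it called 99 at 10% and 8 at 5% CO2. Of the genes named by rule, the log2 difference at 10% CO2 was 1.75 for TP53INP2, 1.33 for LINC01547, 1.19 for MROCKI, 1.06 for KDM6B and 0.93 for NR4A1, and it was -1.65 for CXCR4 and -0.92 for GCNT1. The test of 10% against 5% CO2 called 0 genes by edgeR (336 at an unadjusted p under 0.05) and 0 by DESeq2, so the 2 CO2 levels were not shown to differ.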

How the results depend on the processing

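The number of genes called for the difference in LPS response at 5% CO2 was 0 by edgeR and stayed 0 with RLE size factors, library size only, a filter at 1 CPM and 1 fit to all 36 libraries. It was 8 with DESeq2 and 85 with no filter, and 97 for the mean of the differences at 5% and 10% CO2 over 24 libraries, an alternative chosen after seeing the data. It ranged from 0 to 39 with 1 library left out, and was above 0 only without shNR4A3 5% CO2 + LPS replicate 2. Without replicate 2 in all 4 conditions it was 11, also chosen after seeing the data. At 10% CO2 the number was 99 with DESeq2, 135 with no filter, 6 with 1 fit to all 36 libraries and 9 to 43 with 1 library left out, the lowest without shNT 10% CO2 + LPS replicate 3. It was 11 to 23 without replicate 1 or 2 of shNR4A3 10% CO2 with or without LPS, shNT 10% CO2 + LPS replicate 1 or shNT 10% CO2 replicate 3. For shNR4A2 at 5% CO2 it was 2 with DESeq2, 19 with no filter and 0 to 8 with 1 library left out (8 without shNR4A2 5% CO2 + LPS replicate 2). For shNR4A3 against shNR4A2 it was 1 with DESeq2 and 18 with no filter, and 0 to 0 with 1 library left out. With 1 library left out, calls between the lines ranged from 528 to 1198 at rest, lowest without shNT replicate 3, and from 708 to 1784 with LPS, lowest without shNT + LPS replicate 2, and LPS effects from 2851 to 4127 in shNT and 3903 to 5340 in shNR4A3 cells. The cause of these moves was not tested.

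Libraries with the same replicate number resembled each other for most but not all pairs (correlations of deviations of 0.075 to 0.654 over genes at 10 CPM or more), and in 35 of 36 comparisons of a library with another condition it correlated best with its own number. This is a hint from the data and not from the labels. The study's figure legends give n = 3 individual experiments and do not say which libraries were made together. With the replicate block edgeR called 17 genes at 5% CO2 (14 higher, 3 lower; 10 of them among the 35; of genes in the text MROCKI, LINC01547, KDM6B, TP53INP2, ENSG00000228477, IRS1, BIRC3, IL1B, CCL2 and F3 higher, CXCR4 and GCNT1 lower), 179 at 10% CO2, 8 for shNR4A2, 1 for shNR4A3 against shNR4A2, and 2261 and 2924 between the lines at rest and with LPS.

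The median difference of LPS-induced genes was 0.25 to 0.48 with libraries left out. That of LPS-repressed genes was -0.025 with classes from shNT 5% CO2 and -0.2964 to -0.0707 with libraries left out. The sign turned for landmarks near 0: with libraries left out NR4A2 ranged from -0.2577 to 0.0484, CXCL8 from -0.34 to 0.16 (0.1493 without replicate 2 in all 4 conditions), CXCL10 from -0.32 to 0.52, PTGS2 from -0.29 to 0.48 and IER3 from -0.22 to 0.50. The fitted value of IL6, which had 0 counts at rest in shNT cells and is no measured fold, ranged from -0.57 to 1.83 (0.71 with DESeq2). Of the 10 leading genes all kept their direction in every alternative run.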

Other observations

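Without replicate 2 of LPS-treated shNR4A3 cells, edgeR called 39 genes at 5% CO2, 12 of them among the 35 of 10% CO2 and 7 among the 8 called by DESeq2. BIRC3 (log2 difference 1.33), MARCKS (1.54), TRAF1, an adaptor of TNF receptors (1.21), CFLAR, the caspase-8 inhibitor c-FLIP (0.74), BCL2A1, an anti-apoptotic BCL2 relative (1.95), IFIT2 (1.21) and CD44, a hyaluronan receptor (1.13), were higher, and B4GALT3 (-0.59) was the 1 lower. These genes were chosen after their values were seen. The fit kept replicate 2 of LPS-treated shNT cells, also the lowest of its line for LPS-induced genes, so leaving out the shNR4A3 library alone was uneven between the lines.

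RESF1, a repressor of endogenous retroviruses, was called by DESeq2 at 5% CO2 (log2 difference 1.21) and stood in resting and LPS-treated shNT libraries at 43.0 to 58.6 and 29.4 to 35 TPM, against 35.3 to 39.2 and 41.7 to 71.8 in shNR4A3 libraries.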
